A study of Caenorhabditis elegans with 30 samples.

Results

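H3K9me3 in hrde-1 mutants was compared with that in WT in 6 ChIP-seq libraries, 3 of each strain, out of the 15 H3K9me3 libraries of the series and its 30 samples. The members were chosen by strain, antibody and feeding: hrde-1 (tm1200) and WT (N2), each grown at 19 °C on E. coli OP50, on gfp RNAi bacteria and on oma-1 RNAi bacteria. ChIP-seq recovers the DNA bound to histone H3 trimethylated at lysine 9, and each library came from a pellet of synchronized young adults ground whole, so that germline and soma were measured together. Each strain and feeding has 1 library, so the 3 feedings stand in as replicates and every ± below is the spread between feedings. The study asked whether the H3K9me3 that germline nuclear RNAi lays down is needed for silencing, and hrde-1 is the strain in which nuclear RNAi itself is broken. Its Pol II antibody was against Pol II phosphorylated at S2 of the C-terminal repeat, a form the study links to elongation. Pol II below means this form. Pol II ChIP-seq of the same strains on gfp RNAi and oma-1 RNAi (4 libraries) and H3K9me3 of met-2 set-25 (met-2(n4256);set-25(ok5021), 3 libraries) were used for comparison only.

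HRDE-1 is a nuclear Argonaute protein of the C. elegans germline. It binds secondary siRNAs and, with the other nuclear RNAi factors, directs both transcriptional silencing and H3K9me3 to the genes and repeats that the siRNAs match, and it is needed for silencing to be inherited. MET-2 and SET-25 are histone methyltransferases that make most H3K9 methylation of the worm. The deposited table marks 2 lists of windows from the authors' earlier work on hrde-1 mutants. GRH windows (215) have heterochromatin that depends on germline nuclear RNAi, GRTS windows (191) have transcriptional silencing that depends on it, and 25 windows are on both lists. Since these lists were drawn from hrde-1 mutants, the direction of their H3K9me3 and Pol II changes below is not independent evidence of either.

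The values were RPKM in windows of 1 kb, and 99742 windows were tested. Each library was divided by its median over the H3K9me3(−) windows, the 22219 windows between the 5th and 25th percentile of WT on OP50, and levels below are given as times this background. H3K9me3(+) windows were the top 5% of the same library (5031 windows, of which 4776 are outside GRH and GRTS), so the WT OP50 library chose them and stands high in them. The 6 libraries held 3126500 to 5550000 aligned reads, or 22 to 47 reads in the median window. The WT libraries differed in contrast more than the hrde-1 libraries. The median of the H3K9me3(+) windows was 13.4 times background in WT on OP50, 3.76 with gfp RNAi and 6.90 with oma-1 RNAi, against 7.003, 5.23 and 5.67 in hrde-1. By this ratio the WT library with gfp RNAi is the flattest of the 6 and WT on OP50 the sharpest. WT on OP50 also chose the background windows and stands low in them. Its median there was 2.88 RPKM, against 3.71 to 6.13 RPKM in the rest of the 6 libraries, so its ratio is raised by both choices.

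The WT libraries also differed at places where the strain DNA is in question. At 1646 kb of chromosome V the window held 0 RPKM in WT on OP50 and in all 3 hrde-1 libraries (3 reads would give 0.960 RPKM in the WT library), but 12.6 RPKM in WT with gfp RNAi and 9.67 RPKM with oma-1 RNAi. From 3889 to 3896 kb of chromosome III, WT with gfp RNAi and oma-1 RNAi held 39.0 and 40.8 RPKM, while WT on OP50 held 9.87 RPKM, hrde-1 held 8.09 to 10.3 RPKM and the 9 H3K9me3 libraries of the other strains held 9.13 to 11.02 RPKM. Here the WT animals on RNAi bacteria stand apart from every other library, WT on OP50 included. From 18715 to 18719 kb of chromosome V (3 windows tested) WT on OP50 held 14.1 RPKM, WT with gfp RNAi 6.91 RPKM and WT with oma-1 RNAi 5.45 RPKM, against 17.8 to 19.9 RPKM in hrde-1. Whether the WT animals on OP50 and on RNAi bacteria came from the same stock was not tested. The 4 adjacent windows at 13239 to 13243 kb of chromosome II held 0.0125 to 0.0950 RPKM on average in the hrde-1 libraries and 11.3 to 13.1 RPKM in WT, and Pol II there was also at or near 0 in hrde-1. These 4 windows and the window of chromosome V were the 5 windows at no more than 0.25 times WT in every hrde-1 library of both antibodies, and all 5 are among the windows called lower below. On OP50 the window of chromosome V met this limit only because WT and hrde-1 both held 0 RPKM. No window was at 4 times WT or more in every hrde-1 library of both antibodies. The 4 windows were at 0.00283 to 0.0256 times background in hrde-1, whereas no GRH-only window had a mean under 0.479 there, and met-2 set-25 held 12.3 to 17.0 RPKM in them. The DNA itself was not analysed here.

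At oma-1, the gene targeted by the RNAi feeding, hrde-1 lacked most of the H3K9me3 that WT showed. oma-1 encodes a zinc finger protein that acts in oocyte maturation. The feeding vector makes a dsRNA with designed mismatches to the gene, and the start of this trigger is shown because it fixes where siRNAs from the food could match. Capitals mark the mismatches, which tell the trigger from the gene itself.
oma-1 dsRNA trigger, bases 1 to 180 of 478, from exons at chrIV:8889833-8890353: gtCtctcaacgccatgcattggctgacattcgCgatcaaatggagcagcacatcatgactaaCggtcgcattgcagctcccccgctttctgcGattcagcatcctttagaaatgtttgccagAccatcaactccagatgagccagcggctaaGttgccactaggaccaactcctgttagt

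The study's coordinates of the trigger name no genome build. Taken as WS190, they place the trigger in the 2 windows at 8889 to 8891 kb of chromosome IV. In WT these windows held 30.6 and 22.1 RPKM with oma-1 RNAi and 7.36 and 7.08 RPKM in hrde-1. Over both windows this was 229 reads in WT and 51 in hrde-1, and 0.256 times WT over the background of each library (95% exact counting interval 0.185 to 0.348). Over background, WT was at 6.03 and hrde-1 at 1.55 with oma-1 RNAi, while on OP50 and gfp RNAi WT was at 1.33 and 1.16 and hrde-1 at 1.15 and 1.17. The hrde-1 to WT ratio over background was 0.866 on OP50 (0.489 to 1.55) and 1.00 on gfp RNAi (0.701 to 1.43), and both intervals include 1. The strains thus differed at oma-1 with oma-1 RNAi and, at this depth, not detectably without it. In the WT library the level was 9.90 RPKM 1 kb before these windows and 6.91 RPKM 1 kb after them, against 5.10 and 3.11 RPKM in hrde-1. Each value is 1 library, and the intervals cover counting error only.

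**Figure D1:**
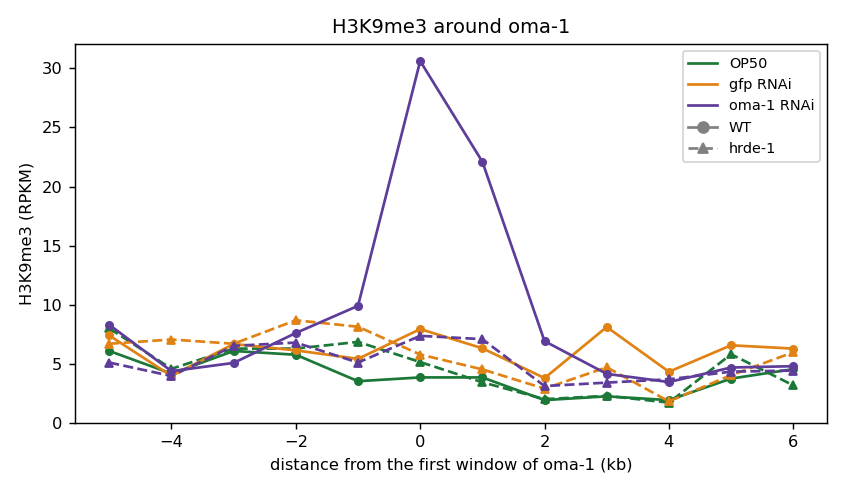
H3K9me3 in RPKM against distance from the first window of oma-1 in kb, for WT (solid lines, circles) and hrde-1 (dashed lines, triangles) on OP50, gfp RNAi and oma-1 RNAi. The WT library with oma-1 RNAi stands alone at 30.6 and 22.1 RPKM in the windows at 0 and 1 kb, where hrde-1 with oma-1 RNAi holds 7.36 and 7.08 RPKM.

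H3K9me3 was lower in hrde-1 at 649 windows and higher at 74 (limma on log2(RPKM + 1) with feeding as a block, Benjamini-Hochberg adjusted p under 0.05 and at least a 2-fold change). That is 0.651% and 0.0742% of the windows tested. In whole animals a lower level per germline nucleus and fewer germline nuclei cannot be told apart. The falls were concentrated on the GRH list. Of the 215 GRH windows, 201 were called lower (93.5%) and none higher, and the median log2 change was -1.78, against 0.04 over all windows tested. The list was itself drawn from hrde-1 mutants, so this direction is not independent evidence. Of the 166 windows that are GRTS only, 29 were called lower (17.5%) with a median of -0.66, and of the 4776 H3K9me3(+) windows outside both lists 175 were called lower (3.66%) with a median of -0.23. The number of calls rested on single WT libraries. Without WT on OP50 it was 363 lower and 299 higher, and without WT with gfp RNAi 1383 lower and 97 higher. In these fits 172 and 213 GRH windows were lower, and 143 without all oma-1 RNAi libraries. The GRTS-only count moved more. It was 91 without WT with gfp RNAi, 15 without WT on OP50 or without WT with oma-1 RNAi, 14 without hrde-1 on OP50, 12 without hrde-1 with oma-1 RNAi and 5 without all oma-1 RNAi libraries, and its median ran from -1.09 to -0.26.

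Windows that are GRH only (190) fell to near background in every hrde-1 library. Their median in WT was 10.3 times background on OP50, 2.76 with gfp RNAi and 5.62 with oma-1 RNAi. In hrde-1 it was 1.42, 1.38 and 1.31. The groups did not overlap, and all hrde-1 libraries were below all WT libraries in 174 of the single windows, against 2.17% of all windows tested. The hrde-1 libraries were alike (1.37 ± 0.0599, SD, n = 3) where the WT libraries were not (6.24 ± 3.82, SD, n = 3). The ratio to WT was 0.138, 0.500 and 0.232 for OP50, gfp RNAi and oma-1 RNAi (exact two-sided permutation test, p = 0.1, the smallest p that 3 against 3 libraries allow). In 155 of the 190 windows (81.6%) the mean of the hrde-1 libraries was under 2 times background, a level that 1.05% of them had in WT and 53.3% of all windows tested had in hrde-1. The 25 windows on both lists behaved alike: their median was 13.2, 3.45 and 8.15 in WT and 1.65, 1.76 and 1.68 in hrde-1, and 24 of 25 were called lower.

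The level left in hrde-1 at GRH windows rose with the level in WT, but by less. When the 190 GRH-only windows were put into 4 bins of near equal size by their WT mean, the median WT level rose from 3.59 to 5.20, 7.16 and 9.59 times background, and the hrde-1 median was 1.08, 1.34, 1.46 and 1.80. The ratio to WT went from 0.338 in the lowest bin to 0.169 in the highest. The bins were set by the WT values that enter the ratio, so these values are a description. All 215 GRH windows had a negative log2 change. The 14 GRH windows not called lower had log2 changes of -1.02 to -0.57 with adjusted p of 0.0119 to 0.848, and 2 of these windows passed the p but not the fold.

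**Figure D2:**
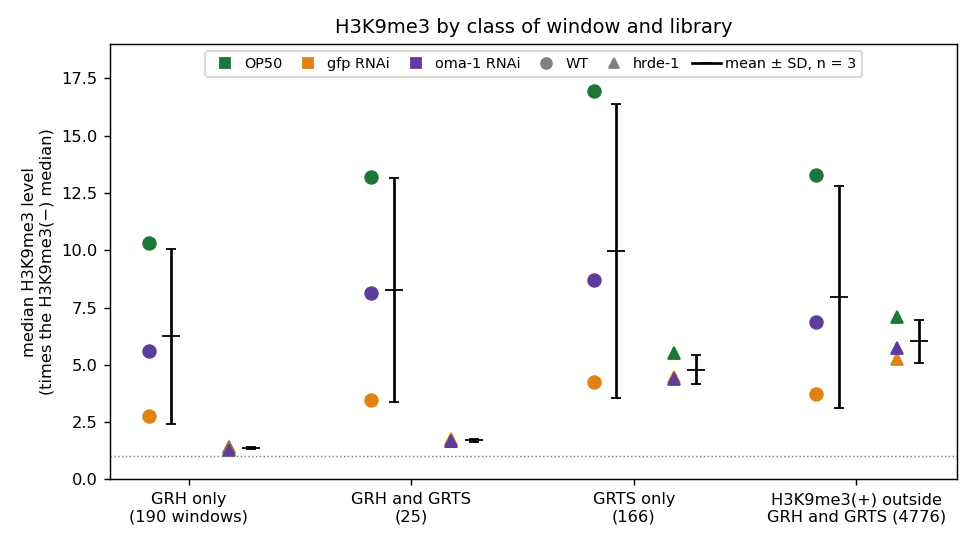
Median H3K9me3 level (times the H3K9me3(−) median) of 4 classes of window in each library. Circles are WT, triangles are hrde-1, colours are feedings, and black marks give the mean ± SD of the 3 feedings. The hrde-1 libraries sit at 1.31 to 1.42 in GRH-only windows and at 4.38 to 5.53 in GRTS-only windows, while the WT libraries spread from 2.76 to 16.9.

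Windows that are GRTS only (166) kept much of their H3K9me3 in hrde-1. Their median in WT was 16.9 times background on OP50, 4.27 with gfp RNAi and 8.72 with oma-1 RNAi, and in hrde-1 it was 5.53, 4.47 and 4.38. On gfp RNAi hrde-1 was at 1.05 times WT, and on OP50 and oma-1 RNAi at 0.326 and 0.502 times WT, so the groups overlapped over background (exact permutation test, p = 0.4). This overlap depended on the division by background. In RPKM scaled by depth alone the medians were 48.8, 26.2 and 38.1 in WT and 20.5, 19.75 and 20.4 in hrde-1, without overlap. In 18 of the 166 windows (10.8%) the hrde-1 mean was under 2 times background. Over background, the H3K9me3(+) windows outside both lists showed the same dependence on the feeding, at 13.3, 3.75 and 6.85 in WT and 7.08, 5.27 and 5.75 in hrde-1 (exact permutation test, p = 0.8).

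When each library was set to its own H3K9me3(+) median outside GRH and GRTS, the WT libraries lay close together in the listed classes, though not in the H3K9me3(−) windows, which were at 0.0754, 0.267 and 0.146 in WT and 0.141, 0.190 and 0.174 in hrde-1. This scaling was chosen after the data were seen. On this scale GRH-only windows were at 0.779, 0.737 and 0.821 in WT on OP50, gfp RNAi and oma-1 RNAi, and at 0.201, 0.262 and 0.227 in hrde-1. GRTS-only windows were at 1.28, 1.14 and 1.27 in WT and at 0.781, 0.847 and 0.760 in hrde-1. The groups did not overlap in either class (exact permutation test, p = 0.1 for each). The GRTS-only windows were thus above the other H3K9me3(+) windows in all WT libraries and below them in all hrde-1 libraries, at a ratio of means of 0.647, and the GRH-only windows at 0.295. In limma this scaling moved the median change of all windows from 0.04 to 0.22 and gave 418 windows lower and 160 higher, so that the share of calls that were lower went from 89.8% to 72.3%.

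Next, hrde-1 was compared with met-2 set-25, the mutant of the methyltransferases. Over background, GRH windows held less H3K9me3 in hrde-1 than in met-2 set-25, and other H3K9me3(+) windows held more. The median of the GRH-only windows in met-2 set-25 was 2.50 on OP50, 1.63 with gfp RNAi and 2.20 with oma-1 RNAi, above the 1.31 to 1.42 of hrde-1 in each library. The median of all windows tested was 2.40, 1.55 and 1.90 in met-2 set-25 and 2.23, 1.92 and 1.64 in hrde-1. In met-2 set-25 the GRH-only windows were thus near the level of all windows. In the same fit, 34 of the 215 GRH windows were lower in hrde-1 than in met-2 set-25 and 0 higher, against 0.142% of all windows lower. Most GRH windows were not separated by the test, and the median log2 difference over GRH windows was -0.48. Of the GRTS-only windows 61 were higher in hrde-1 and 0 lower, and of the 4776 H3K9me3(+) windows outside both lists 2633 were higher (55.1%) and 0 lower, against 5.0% of all windows higher. Without the oma-1 RNAi libraries 9 GRH windows were lower and 1 GRTS-only window higher, and with depth normalization alone 59 and 45. Scaling to the H3K9me3(+) median sets the windows outside the lists equal by construction and moved the median difference of all windows from 0.01 to -0.97, and with it 174 GRH windows were lower and GRTS-only windows went to 25 lower and 0 higher. Under the other 6 alternatives 0 GRTS-only windows were lower and 1 to 67 were higher.

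The loss extended past the GRH windows and faded over a few kb. In the windows next to a GRH window (180, GRTS windows left out) the median level was 6.94, 2.11 and 4.03 in WT and 1.89, 1.75 and 1.52 in hrde-1, and 105 were called lower (58.3%). At 2 kb 52 of 164 were lower (31.7%), at 3 kb 23 of 166, at 5 kb 6 of 162 and at 10 kb 2 of 161. The median log2 change went from -1.78 in the GRH windows to -1.12, -0.69 and -0.37 at 1, 2 and 3 kb and to -0.06 at 10 kb. In hrde-1 the GRH windows (1.33 to 1.44 times background) lay slightly below the windows 10 kb away (1.56 to 1.99), so the peak that WT showed there was not seen. Around GRTS windows a lower peak remained in hrde-1, with 5.16, 4.25 and 4.03 in the GRTS windows and 2.82, 2.41 and 2.12 at 10 kb. Of the 649 lower windows, 419 are on neither list, and 229 of these lie within 5 kb of a GRH or GRTS window. The 419 became 176 without WT on OP50, 1079 without WT with gfp RNAi, 252 without hrde-1 on OP50, 277 without hrde-1 with oma-1 RNAi and 109 without all oma-1 RNAi libraries. Within that distance 17.0% of the 1346 windows outside the lists were lower, and farther away 0.194% of 98015.

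**Figure D3:**
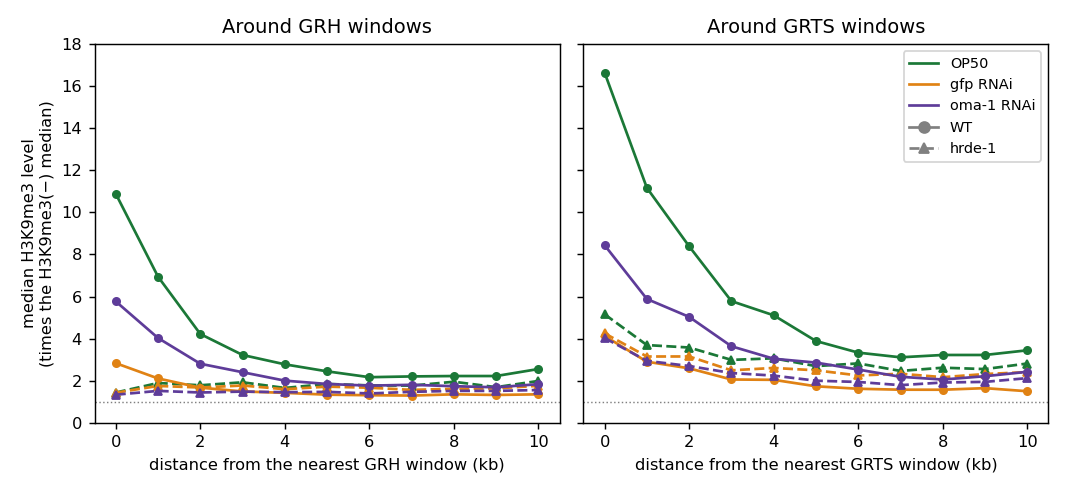
Median H3K9me3 level (times the H3K9me3(−) median) against distance from the nearest GRH window (left) or GRTS window (right) in kb, for WT (solid lines, circles) and hrde-1 (dashed lines, triangles) in 3 feedings. The GRH peak of WT, 2.83 to 10.9 at distance 0, is flat in hrde-1 at 1.33 to 1.44, whereas around GRTS windows hrde-1 keeps a peak of 4.03 to 5.16.

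Most lower windows were on the autosomes. Chromosomes I, II, III, IV and V held 157, 123, 106, 138 and 110 of them, and chromosome X held 15, which is 0.772% of the autosomal windows and 0.0852% of the X windows. The lists had the same placing, with 3 GRH windows and no GRTS window on X.

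Neighbouring lower windows were joined into 89 regions of at least 3 called windows (480 windows), of which 65 held a GRH window and 18 held neither a GRH nor a GRTS window. All of the 10 regions with the largest mean falls held GRH windows. In them hrde-1 was at 0.789 to 1.76 times background in every library, and WT at 8.998 to 16.9 on OP50, 2.66 to 4.05 with gfp RNAi and 5.05 to 8.76 with oma-1 RNAi. The region at 12740 to 12749 kb of chromosome II (9 windows, 7 GRH) held 16.8, 4.04 and 8.58 in WT on OP50, gfp RNAi and oma-1 RNAi and 1.54, 1.48 and 1.53 in hrde-1, a mean log2 change of -2.38 with adjusted p of at most 0.0130. The region at 11170 to 11178 kb of the same chromosome went from 10.6, 2.74 and 5.16 to 0.892, 0.825 and 0.789, a mean log2 change of -2.35. The region with the largest mean fall, -2.55 at 13238 to 13250 kb of chromosome II, is the one that holds the 4 windows near 0 for both antibodies in hrde-1. Its other 8 windows, 4 of them GRH, still fell by 1.90 on the log2 scale, from 11.5, 3.21 and 6.08 in WT to 1.55, 1.52 and 1.50 in hrde-1. They include the windows at 13238 and 13243 kb, which border the 4 and held 0.63 to 2.88 RPKM in hrde-1. From 13244 to 13250 kb (6 windows) the mean log2 change was -1.84. Levels there were 14.1, 3.71 and 7.45 in WT and 1.91, 1.95 and 1.83 in hrde-1.

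These regions differed in Pol II. At 4457 to 4470 kb of chromosome I (13 windows, 12 GRH and 5 GRTS) H3K9me3 fell by 2.04 on the log2 scale while Pol II (gfp RNAi, then oma-1 RNAi) went from 11.7 and 14.9 RPKM in WT to 64.9 and 72.8 RPKM in hrde-1, with 8 of 13 windows called higher for Pol II. At 4188 to 4193 kb of chromosome IV (5 windows, all GRH) H3K9me3 fell by 2.36, from 12.9, 3.28 and 7.08 to 1.07, 1.10 and 1.38, while Pol II was 26.2 and 30.2 RPKM in WT and 26.4 and 35.3 RPKM in hrde-1, with 1 of 5 windows called. At 5978 to 5983 kb of chromosome I (5 GRH windows) H3K9me3 went from 10.3, 2.38 and 4.86 to 1.23, 1.24 and 1.21, and Pol II was 30.4 and 37.3 RPKM in WT and 30.2 and 42.0 RPKM in hrde-1, with no window called. So a near complete fall in H3K9me3 was seen both with and without higher Pol II.

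Over the lists, windows with lower H3K9me3 and windows with higher Pol II overlapped in part. Pol II was higher in hrde-1 at 463 windows and lower at 135, which is 0.464% and 0.135% of those tested (2 libraries a strain, limma, same thresholds). Of the GRH-only windows 55 of 190 had higher Pol II, all 55 with lower H3K9me3, and 122 had lower H3K9me3 without higher Pol II. Over all 215 GRH windows 79 had higher Pol II, and 46 without hrde-1 with oma-1 RNAi. Of the GRTS-only windows, listed for their Pol II in hrde-1 mutants and so no independent evidence of it, 136 of 166 had higher Pol II, and in 109 of these H3K9me3 was not called lower. The other 27 were among the 29 GRTS-only windows with lower H3K9me3. Of the 25 windows on both lists 23 had both. Median Pol II in GRTS-only windows was 5.08 and 3.94 RPKM in WT and 22.8 and 20.4 RPKM in hrde-1, and in GRH-only windows 13.0 and 13.6 RPKM in WT and 20.1 and 25.02 RPKM in hrde-1.

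**Figure D4:**
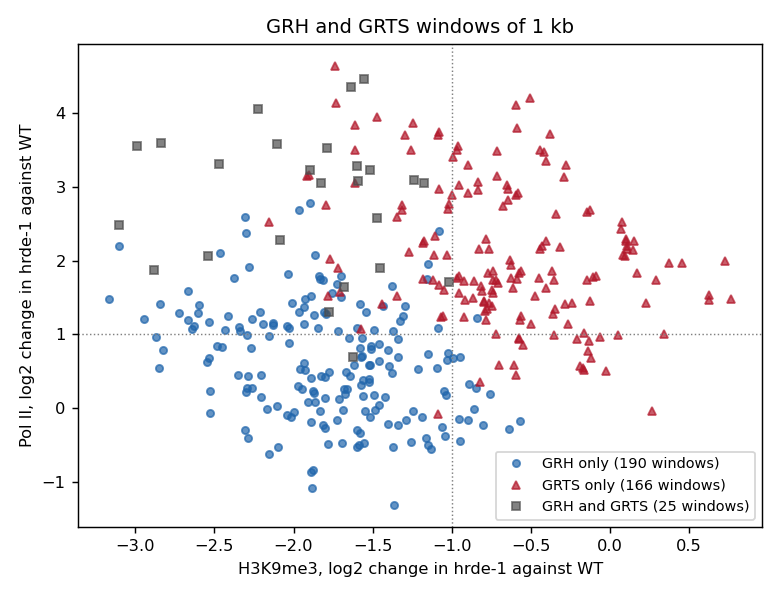
Log2 change of H3K9me3 (x axis) and of Pol II (y axis) in hrde-1 against WT for each GRH and GRTS window of 1 kb. Dotted lines mark a 2-fold fall in H3K9me3 and a 2-fold rise in Pol II. GRH-only windows (circles, median H3K9me3 change -1.78) lie to the left, GRTS-only windows (triangles, median -0.66, median Pol II change 1.84) lie to the upper right, and windows on both lists (squares) to the upper left.

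The longest run of GRTS windows, 14 windows at 5187 to 5201 kb of chromosome V, had higher Pol II in every window and lower H3K9me3 in none. Its mean H3K9me3 was 14.95, 4.14 and 8.16 in WT and 7.88, 6.99 and 7.98 in hrde-1, and its Pol II was 5.75 and 4.71 RPKM in WT and 45.0 and 45.7 RPKM in hrde-1. The run was uneven along its length. In the first 6 windows Pol II in hrde-1 was 77.05 and 83.9 RPKM and the log2 changes of H3K9me3 were -0.44 to -0.28. In the last 6 windows Pol II was 18.2 and 14.98 RPKM and the changes of H3K9me3 were 0.37 to 0.77, with H3K9me3 of 4.998, 2.16 and 3.56 in WT and 4.53, 5.19 and 5.61 in hrde-1. None of these 14 H3K9me3 changes passed the test. The run of 5 GRTS windows at 17568 to 17573 kb of the same chromosome, with no GRH window, differed in H3K9me3. H3K9me3 fell from 27.1, 6.19 and 12.6 to 5.29, 4.22 and 3.49, with all 5 windows called lower, and Pol II rose from 3.26 and 2.27 to 39.9 and 46.3 RPKM, with all 5 called higher. Among the 94 GRTS runs, 18 had every window lower in H3K9me3 and 68 had none, while 91 of the 104 GRH runs had every window lower. The next 2 longest GRTS runs, 11 windows each at 8826 and 8868 kb of chromosome V, had nearly the same values as each other. Since a read with several matches was counted in parts, they may share reads. Both are nevertheless counted in all numbers of GRTS windows and runs given here. The same holds for other GRTS windows of like values, such as those at 8843 and 8885 kb.

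**Figure D5:**
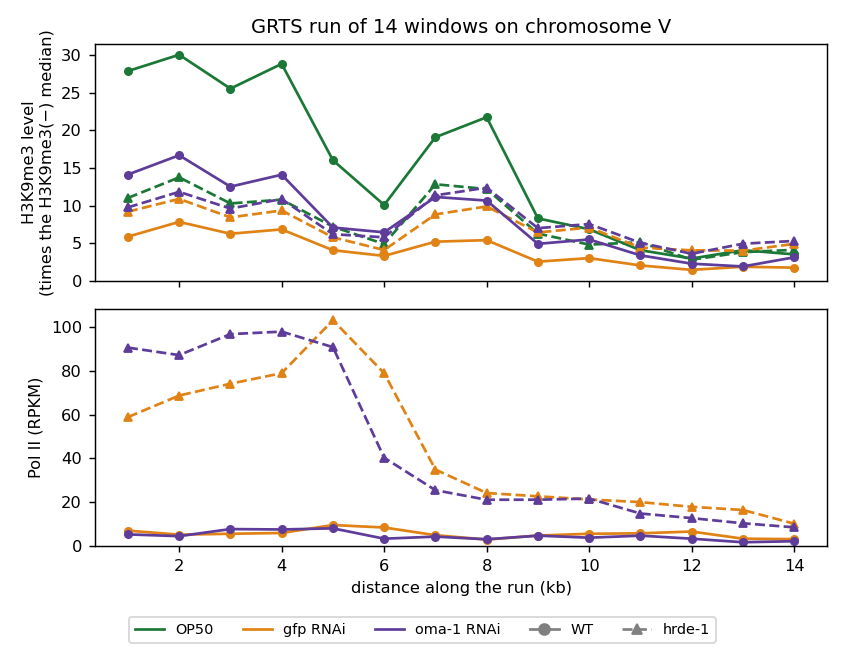
H3K9me3 level (top, times the H3K9me3(−) median) and Pol II (bottom, RPKM) in the 14 windows of the longest GRTS run, against distance along the run in kb. Solid lines with circles are WT and dashed lines with triangles are hrde-1. Pol II is higher in hrde-1 along the whole run, with 58.9 to 103 RPKM on gfp RNAi in the first 6 windows and 10.3 RPKM in the last, while the H3K9me3 lines of the strains cross.

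Lower H3K9me3 was also found away from the lists. The 10 regions with the largest mean falls among the 18 that hold no listed window had mean log2 changes of -1.52 to -1.29, smaller than those of the 10 regions above (-2.55 to -1.91), and 2 of their 44 windows had higher Pol II. The region at 11066 to 11072 kb of chromosome I went from 20.3, 4.58 and 10.3 in WT to 4.01, 3.23 and 3.15 in hrde-1, and the region at 12915 to 12919 kb, 167 kb from the nearest listed window, from 13.8, 3.37 and 6.86 to 2.43, 2.18 and 2.12. The region at 19766 to 19770 kb of chromosome V, 527 kb from a listed window, went from 11.2, 2.97 and 6.17 to 2.44, 2.57 and 1.78. In these 3 regions all hrde-1 libraries were below all WT libraries, WT with gfp RNAi lay closest to hrde-1, and hrde-1 stayed above background. These 3 calls were lost without the oma-1 RNAi libraries (mean log2 changes of -1.43, -1.46 and -1.14) and in a fit of the 6 libraries alone (-1.49, -1.45 and -1.32), and those at 11066 and 19766 kb also without the OP50 libraries (-1.07 and -0.95). The region at 8858 to 8862 kb of chromosome III is among the 10 too. WT held 19.1 RPKM there on OP50, 39.8 with gfp RNAi and 54.8 with oma-1 RNAi. H3K9me3 was 11.9 to 13.4 RPKM in hrde-1 and 7.70 to 10.3 RPKM in the 9 libraries of the other strains. Pol II was 89.9 and 122 RPKM in WT and 45.4 and 57.8 RPKM in hrde-1, with 3 windows called lower. The 6 Pol II libraries of the other strains held 31.8 to 69.3 RPKM. The region at 3889 to 3896 kb of chromosome III is also among the 10, and it is the place named above where WT on RNAi bacteria stood apart. On OP50 it held 3.43 in WT and 2.78 in hrde-1, with oma-1 RNAi 9.33 and 1.73, and the call was lost without WT with oma-1 RNAi (mean log2 change -1.05). Pol II there was 16.5 and 12.1 RPKM in WT and 5.11 and 3.30 RPKM in hrde-1, with 5 windows called lower. The 6 Pol II libraries of the other strains held 3.47 to 5.90 RPKM. In Pol II, too, WT on RNAi bacteria thus stood apart from the other strains.

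Higher H3K9me3 in hrde-1 was rare and formed 3 regions, none near a listed window. At 1914 to 1922 kb of chromosome III (7 windows called) WT held 5.64, 1.78 and 3.50 times background and hrde-1 8.36, 6.30 and 8.03, so that every hrde-1 library was above every WT library, a mean log2 change of 1.16 with adjusted p of at most 0.0282. In RPKM the 8 windows held 11.4 to 16.9 in WT, 28.7 to 38.6 in hrde-1 and 5.09 to 14.5 in the 9 libraries of the other strains. Pol II there was 11.9 and 14.1 RPKM in WT and 10.1 and 10.0 RPKM in hrde-1, with no window called. The region at 14877 to 14882 kb of chromosome I held 5.47, 1.61 and 2.94 in WT and 7.14, 5.56 and 7.14 in hrde-1, where met-2 set-25 held 0.898 to 1.02. The region at 18715 to 18719 kb of chromosome V held 4.91 in WT and 5.37 in hrde-1 on OP50, and 1.13 and 1.25 in WT against 4.37 and 3.81 in hrde-1 on the 2 RNAi bacteria, so its groups overlapped. The calls of the 3 higher regions were lost under 8 of 19, 6 of 20 and 9 of 19 alternatives in the order given here, leaving out WT with gfp RNAi among them (0.81, 0.79 and 0.77). The 10 largest falls outside the lists lost theirs under 1 to 5 alternatives, and the 10 largest falls of all under none.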

How the data were processed

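H3K9me3 and Pol II ChIP-seq of young adult C. elegans were deposited as RPKM in 1-kb windows of the WS190 (ce6) genome. The authors used Bowtie 0.12.7 and only alignments without mismatch, split a read with N matches into parts of 1/N, and set the deposited RPKM to the depth of each library, without input correction. Columns holding the authors' own comparisons were not used, and input libraries were not analysed here. Library names were paired with samples through the study's library list. Of 100270 windows, 506 marked as misannotated and 22 with a mean under 3 RPKM over 25 libraries were left out. Libraries were scaled to their H3K9me3(−) median (Pol II by depth only). limma 3.58.1 in R 4.3.3 was run on log2(scaled RPKM + 1) with a trend and feeding as a block, over 15 H3K9me3 or 10 Pol II libraries of 5 strains. Fold changes on this scale understate changes at low levels. The H3K9me3 fit gave infinite prior degrees of freedom, which means that every window took its spread from windows of similar level. No 2 libraries share a strain and feeding. In the main fits the p-values thus rest on the spread left after strain and feeding are fitted, over the libraries of all 5 strains. The permutation tests did not keep the match by feeding. Depth was taken from the step that 1 read makes in the RPKM values. Of values under 10 RPKM, 82.3 to 86.4% in the 6 libraries were whole reads to within 0.0055 RPKM, so no count test was run.

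The named regions join called windows of 1 direction over gaps of at most 1 kb, hold at least 3 of them and go the same way in each feeding. The 10 largest mean falls and rises, and the 10 largest falls without a listed window, were described. The members and lists were chosen with earlier results of these data known. Alternatives covered scaling, pseudocount, filter, block, trend, fold and each library and feeding left out. Windows other than those of oma-1 were not paired with genes here. Tables and plots were made in Python 3.11.15 (matplotlib 3.10.9, pandas 2.3.3, numpy 2.4.6, with scipy 1.17.1 for exact tests).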

Additional observations from a re-analysis of the deposited data

Results flagged for a closer look

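Over background, the change of hrde-1 against WT went opposite ways in different feedings in 2 classes of window. GRTS-only windows were at 0.326 times WT on OP50 and 0.502 with oma-1 RNAi but at 1.05 with gfp RNAi. H3K9me3(+) windows outside GRH and GRTS were at 0.533 times WT on OP50 and 0.840 with oma-1 RNAi but at 1.41 with gfp RNAi. Over all windows tested the ratios went the same ways, at 0.913, 1.39 and 0.913 for OP50, gfp RNAi and oma-1 RNAi, so the turn was not particular to these classes. With RPKM scaled by depth alone, GRTS-only windows were lower in hrde-1 in every feeding, at 0.420, 0.754 and 0.536 times WT. The other H3K9me3(+) windows were then at 0.687, 1.01 and 0.898, and all windows tested at 1.18, 1.00 and 0.976. The background median with gfp RNAi was 6.13 RPKM in WT and 4.42 RPKM in hrde-1. The difference between feedings was not tested, since each strain and feeding has 1 library. WT levels moved with it, at 13.3 times background on OP50 and 3.75 with gfp RNAi in the H3K9me3(+) windows, against 7.08 and 5.27 in hrde-1, and the part of WT contrast in the result was not tested. Groups of 3 libraries are too small for a test of single libraries that stand apart.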

How the results depend on the processing

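Counts of windows moved with the scaling and with single libraries. For hrde-1 against WT (649 lower, 74 higher), 39 windows were higher when libraries were scaled to the median of all windows, 15 with a pseudocount of 4, 43 with a mean of at least 10 RPKM and 156 at 1.5-fold. Scaling to the H3K9me3(+) median outside GRH and GRTS, chosen after seeing the data, gave 418 lower and 160 higher, and a fit of the 6 libraries alone 391 and 28. Leaving out the libraries of 1 feeding gave 351 lower and 200 higher without OP50, 1214 and 64 without gfp RNAi, and 257 and 24 without oma-1 RNAi. Leaving out 1 library gave 363 to 1383 lower and 38 to 299 higher, and for Pol II 119 to 332 lower and 341 to 521 higher. GRH windows called lower numbered 143 to 213 of 215 over the alternatives. For hrde-1 against met-2 set-25 (142 lower, 4989 higher), depth normalization alone gave 361 and 3106, the H3K9me3(+) scaling 46389 and 295, 448 were lower without gfp RNAi, and 2073 were higher without oma-1 RNAi. The log2 ratio of class medians for H3K9me3(+) windows outside both lists, -0.22, reversed to 0.12 without the OP50 libraries, and with 1 library left out ran from -0.67 to 0.24, reversed without WT on OP50. Without the feeding as a block, 592 windows were lower and 60 higher. The block is a match by feeding, not by animal. The cause of these shifts was not tested. With 1 library per strain and feeding, 22 to 47 reads in the median window limit single windows more than lists.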

Other observations

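The first 200 kb of chromosome X, chosen after its values were seen, held 11 of the 74 windows higher in H3K9me3 (193 windows tested there), and also 6 of the 15 windows lower on chromosome X. The last 200 kb of chromosome I held 8 more of the higher windows (200 tested) and none lower. In the first 200 kb of chromosome X the median Pol II was 7.13 and 8.22 RPKM in WT with gfp RNAi and oma-1 RNAi and 4.43 and 2.49 RPKM in hrde-1, with 66 windows lower in Pol II (34.2%, against 0.135% of all windows) and 0 higher. Its median H3K9me3 was 4.80, 1.95 and 3.20 times background in WT and 4.18, 3.37 and 3.20 in hrde-1, and 7 of the 11 windows higher in H3K9me3 were lower in Pol II. On the rest of chromosome X no window was higher in H3K9me3 and 16 of 17419 were lower in Pol II.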
